A study of Mus musculus with 12 samples.

Results

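The 10 genes described here, *AA465934*, *Ccl9*, *Brip1os*, *Dhx40*, *Mlx*, *Psmc3ip*, *Acbd4*, *C130046K22Rik*, *Pipox* and *Med11*, lie on mouse chromosome 11 within 20 Mb of *Pctp* and were chosen by the difference in their liver FPKM between *Pctp*-/- (KO) and wild-type (WT) mice. They are 10 of the 35275 genes measured, and all 10 were tested, along with every other gene that averaged 0.5 FPKM or more over the libraries. The tested genes numbered 12466, of which 459 lie within that distance of *Pctp*. FPKM is the number of fragments assigned to a gene, scaled by the length of its transcript and by the depth of the library. Whole livers of 12 mice were sequenced, 3 in each of 4 groups: WT fed chow, KO fed chow, WT fed a diet depleted of methionine and choline (MCD), and KO fed MCD. KO mice lacked PC-TP in the whole body, WT mice carried *Pctp*, and the labels name no treatment other than the diet. The paper describes its mice as male, and the strain and age of the mice behind these libraries, the time on MCD and the way the KO allele was made are not given in the sources used here. The choice of genes used the KO against WT difference on both diets, so these differences are described below with their standard errors and without a test, and the difference between diets, averaged over the genotypes, is the comparison that was tested for them.

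*Pctp* encodes phosphatidylcholine transfer protein, a START domain protein that carries phosphatidylcholine between membranes and is abundant in liver. Genes close together on a chromosome are inherited together, so an allele made at one gene is passed on with the alleles of its neighbours. The MCD diet removes precursors of phosphatidylcholine and is a standard model of fatty liver with inflammation. *Pctp* itself was read first. Its FPKM was 2.25, 1.21 and 2.65 in WT and 0.566, 0.364 and 0.33 in KO livers on chow, and 7.9, 5.1 and 3.61 in WT and 0.156, 0.329 and 0.293 in KO livers on MCD. Every KO library was below every WT library of its diet, and none was at 0, with 13 to 31 fragments on chow and 8 to 13 on MCD.

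Uniquely mapped reads ranged from 30486576 to 55179468 per library. The share of uniquely mapped reads was 77.6 to 79.4% in chow libraries and 85.7 to 87.5% in MCD libraries, and the stated error rate of the reads was 0.03% and 0.01%. The labels name no sequencing batch, and diet and whatever set these read measures apart cannot be told apart, while the genotypes were compared within a diet. Markers of 7 liver cell types were read against the tissue label. None of the markers was at 0 in all libraries, and 0 of the 41 tested markers were called by limma for the KO on either diet, with 1 at an unadjusted p under 0.05 on chow and 8 on MCD. Of all tested genes, 0.136% were called on chow and 0.818% on MCD. On chow the summed marker levels of WT and KO livers overlapped for all 7 cell types. On MCD they did not overlap for 3. Hepatocyte markers summed to 55788 to 63080 FPKM in WT and 70308 to 76899 in KO livers, neutrophil markers to 18.8 to 24.2 and 6.19 to 14.8, and sinusoidal endothelial markers to 50.3 to 61.2 and 45.3 to 49.9. These shifts accompany every KO difference on MCD given for the 10 genes, and their part in it was not tested.

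The genes fall on both sides of *Pctp* (GRCm38, chromosome 11, 89982665 to 90002894, minus strand). On the side of lower coordinates lie *Med11* at 19.5 Mb, *Pipox* at 12.1 Mb, *AA465934* at 6.69 Mb, *Ccl9* at 6.4 Mb, *Brip1os* at 3.68 Mb and *Dhx40* at 3.17 Mb. On the side of higher coordinates lie *Mlx* and *Psmc3ip* at 11.1 Mb, *Acbd4* at 13.1 Mb and *C130046K22Rik* at 13.7 Mb. The 4 pairs *AA465934* and *Ccl9*, *Brip1os* and *Dhx40*, *Mlx* and *Psmc3ip*, and *Acbd4* and *C130046K22Rik* are less than 1 Mb apart, and no member lies in the 14.3 Mb between *Dhx40* and *Mlx*. Tested genes themselves were unevenly spread, with 24 to 82 in the 5 Mb bins around *Pctp*. The spacing of other genes was not worked out, so nothing is read from these distances. By the GENCODE M21 annotation 7 of the genes code for proteins and 3, *AA465934*, *Brip1os* and *C130046K22Rik*, do not, and 6 are on the plus strand and 4 on the minus strand.

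**Figure D1:**
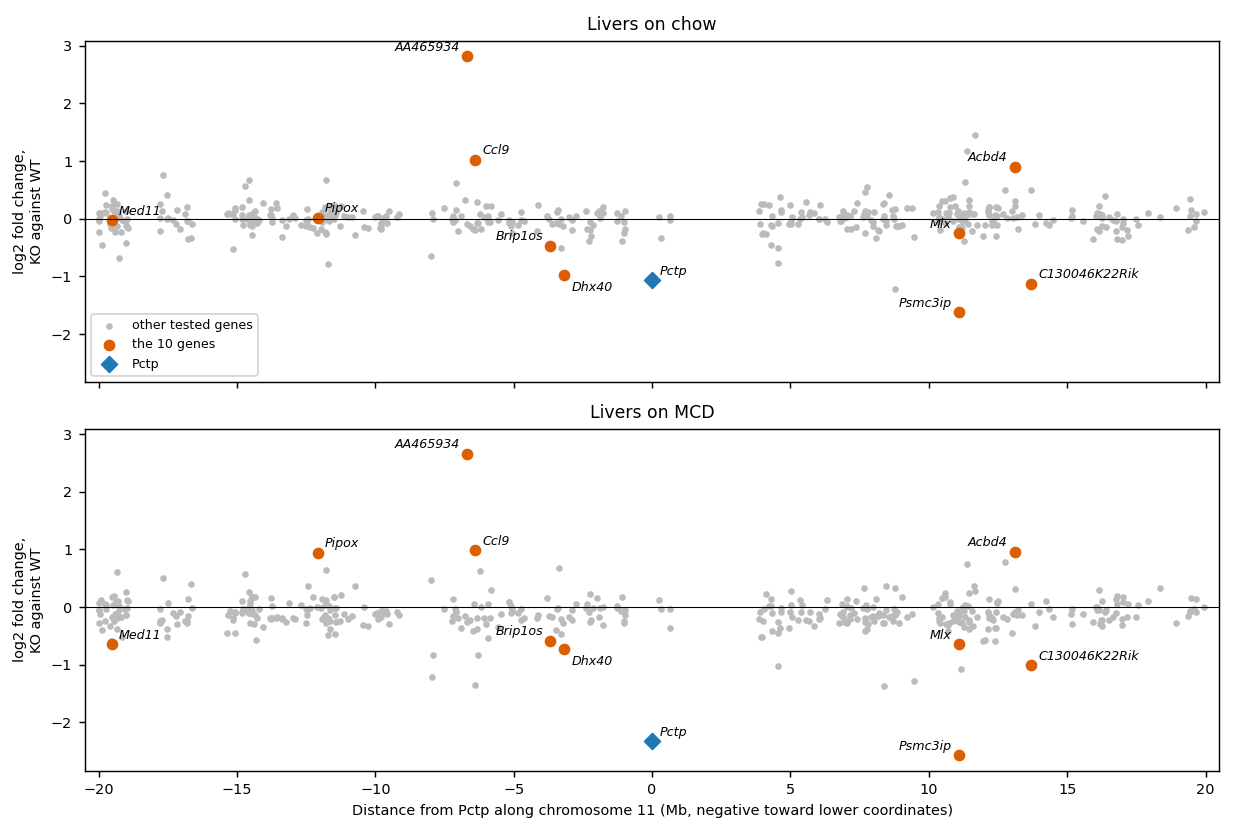
KO against WT difference (vertical axis, log2 fold change on the log2(FPKM + 1) scale) against distance from Pctp along chromosome 11 (horizontal axis, Mb, negative toward lower coordinates) for the 459 tested genes within 20 Mb, on chow (top) and MCD (bottom). Orange points are the 10 genes, the blue diamond is Pctp and grey points are the other 448 genes. AA465934 stands highest on both diets, at 2.82 and 2.66, and Psmc3ip lowest of the 10, at -1.62 and -2.56.

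On chow, 3 of the 10 genes were called higher and 3 lower in KO livers, at a Benjamini-Hochberg adjusted p under 0.05 from limma over all tested genes. The called shares of all tested genes were 0.0562% higher and 0.0802% lower. On MCD, 4 were called higher and 6 lower, against 0.297% and 0.521% of all tested genes. The FPKM ranges of KO and WT did not overlap for 8 of the genes on chow, for all 10 on MCD, and for the same 8 in the same direction on both, against 10.6%, 26.6% and 0.89% of all tested genes. These contrasts chose the genes, so nothing is read from the counts. The counts of called members depended on the fit, with 3 on chow and 5 on MCD when only the 6 libraries of a diet were fitted, and on MCD 6 after median-of-ratios scaling, 6 without WT replicate 2 and 5 without KO replicate 2 or 3. All tested genes together had a median log2 fold change of 0.006 (chow) and -0.09 (MCD).

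*AA465934* (ENSMUSG00000093483, chromosome 11, 83291699 to 83294632, plus strand), a noncoding transcript, was the gene with the largest excess in KO livers. Its FPKM on chow was 1.07, 0.793 and 0.684 in WT and 10.7, 12.6 and 12.8 in KO livers. On MCD it was 2.34, 2.47 and 1.34 in WT and 15, 17.5 and 22 in KO livers. The lowest KO library was therefore several-fold above the highest WT library of its diet. The means were 0.849 ± 0.20 and 12 ± 1.18 (SD, n = 3) on chow and 2.05 ± 0.62 and 18.2 ± 3.53 (SD, n = 3) on MCD, ratios of KO to WT of 14.1 and 8.87. On the log2(FPKM + 1) scale, which understates changes of low values, the difference was 2.82 (standard error 0.17) on chow and 2.66 (standard error 0.17) on MCD. The WT values rested on few reads, 12, 5 and 5 fragments on chow and 21, 23 and 12 on MCD, against 78 to 101 and 120 to 169 in KO libraries. An intron of *AA465934* holds the small nucleolar RNA gene *Snord7* on the same strand, which shares no exon base with it.

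*Ccl9* (ENSMUSG00000019122, 83572919 to 83578636, minus strand) lies 278 kb further on. It encodes a CC chemokine of rodents that is made by myeloid cells and acts on the receptor CCR1. Its FPKM on chow was 12.6, 16.1 and 16.5 in WT and 32.1, 29.4 and 33.2 in KO livers. On MCD it was 18.4, 12.2 and 15.9 in WT and 27.7, 30.5 and 36.2 in KO livers. All 6 KO libraries lay above all 6 WT libraries, whatever the diet. The KO mean was 2.09 times the WT mean on chow and 2.03 times on MCD, with log2 differences of 1.03 (standard error 0.15) and 0.99 (standard error 0.15). In whole liver, a change in the number of cells of a type and a change in RNA per cell cannot be told apart. The 11 markers of Kupffer cells and macrophages, which are myeloid cells, summed to 98.8 to 176 FPKM in WT and 96.8 to 249 in KO livers on chow, and to 357 to 647 and 359 to 426 on MCD. Their ranges overlapped between the genotypes on each diet, 0 of the 11 were called by limma for the KO (0 and 2 at an unadjusted p under 0.05 on chow and MCD), and 9 were called higher on MCD. Neutrophil markers, the other myeloid set, summed to 0.689 to 1.26 FPKM in WT and 0.366 to 3.84 in KO livers on chow. On MCD all KO livers were below all WT livers for these markers. Whether cell numbers had a part in the *Ccl9* difference was not tested. The neighbouring chemokine gene *Ccl6*, 9.25 kb away on the same strand, was not higher in KO livers. Its FPKM on MCD was 18.8, 8.93 and 17.1 in WT and 4.47, 5.88 and 4.68 in KO livers, with a log2 difference of -1.35 (standard error 0.28, limma adjusted p = 0.0531), and on chow the difference was -0.20 (standard error 0.28, limma adjusted p = 0.979). *Ccl5*, 42.4 kb away on the other side, differed by -0.19 on chow and 0.056 on MCD.

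Because *AA465934*, *Ccl9* and *Psmc3ip* include the widest gaps between genotypes and their upstream windows hold no exon of another gene, the 250 bases before each RefSeq start site were read (GRCm38.p6, chr11:83291449-83291698 on the plus strand, chr11:83578637-83578886 on the minus strand and chr11:101095436-101095685 on the minus strand). The last base of the *Psmc3ip* window is the first base of the gene in GENCODE. Capitals mark matches, on either strand, to an E-box with the letters CACGTG, to a CCAAT box, to a GC box with the letters GGGCGG or to a TATA box with the letters TATAAA. No other motif was searched, and overlapping matches are capitalized as one stretch.
AA465934: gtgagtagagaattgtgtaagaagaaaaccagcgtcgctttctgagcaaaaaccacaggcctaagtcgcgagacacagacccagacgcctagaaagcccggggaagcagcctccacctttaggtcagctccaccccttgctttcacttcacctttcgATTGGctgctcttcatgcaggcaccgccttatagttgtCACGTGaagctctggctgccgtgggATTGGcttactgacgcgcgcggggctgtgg
Ccl9: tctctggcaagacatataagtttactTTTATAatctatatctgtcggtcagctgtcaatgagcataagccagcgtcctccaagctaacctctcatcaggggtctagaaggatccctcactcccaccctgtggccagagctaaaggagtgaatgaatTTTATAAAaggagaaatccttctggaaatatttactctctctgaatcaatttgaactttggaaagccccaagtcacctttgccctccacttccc
Psmc3ip: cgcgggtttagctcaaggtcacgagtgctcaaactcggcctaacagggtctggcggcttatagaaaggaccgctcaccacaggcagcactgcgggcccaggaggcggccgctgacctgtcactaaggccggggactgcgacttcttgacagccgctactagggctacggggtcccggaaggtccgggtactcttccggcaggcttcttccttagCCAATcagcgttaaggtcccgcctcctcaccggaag
The windows differ in make-up. That of *AA465934* holds 14 CpG dinucleotides, an E-box and a CCAAT box, that of *Psmc3ip* holds 19 CpG and a CCAAT box, and that of *Ccl9* holds 2 CpG and a TATA box, where the median over 32851 mouse promoters of this length was 6 CpG. A RefSeq window was at hand for 8 of the 10 genes, not for *Brip1os* or *Acbd4*. The E-box was in 3 of the 8, those of *AA465934*, *Dhx40* and *Mlx*, and in 6.02% of all promoters. The CCAAT box was in 3 of the 8 and 33.8% of all, the GC box in 2 and 32.7%, and the TATA box in 1 and 12.4%. A match is only a match of letters.

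*Psmc3ip* (ENSMUSG00000019303, 101091823 to 101095436, minus strand) encodes HOP2, which with MND1 helps the recombinase DMC1 pair homologous DNA and is known above all from meiosis. It had the largest deficit in KO livers of the 7 coding genes. Its FPKM on chow was 2.87, 3.18 and 2.85 in WT and 0.192, 0.473 and 0.214 in KO livers. On MCD it was 5.49, 10.8 and 8.79 in WT and 0.659, 0.533 and 0.427 in KO livers. All KO libraries lay far below all WT libraries. WT means were 10.1 times the KO mean on chow and 15.5 times on MCD, and the log2 differences were -1.62 (standard error 0.18) and -2.56 (standard error 0.18). The KO values stood for 5, 8 and 4 fragments on chow and 16, 10 and 9 on MCD, the WT values for 55 to 88 and 135 to 276. The KO transcript was thus low but seen in every library.

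*Mlx* (ENSMUSG00000017801, 101087277 to 101092207, plus strand) runs toward *Psmc3ip* from the other side, and their last 385 exonic bases overlap on opposite strands. These are 19.3% of the exonic length of *Mlx* and 21.2% of that of *Psmc3ip*. The sources used here do not say whether the counting used strand, and how reads in the overlap were counted was not tested. Both values carry that uncertainty. KO livers had 305 to 387 *Mlx* fragments on chow and 386 to 626 on MCD, where *Psmc3ip* had 4 to 8 and 9 to 16. MLX is the partner with which the glucose-sensing factors ChREBP and MondoA bind carbohydrate response elements. Its FPKM on chow was 13.1, 12.5 and 14.4 in WT and 9.79, 11.8 and 11.6 in KO livers, and on MCD 21.8, 27.7 and 25.4 in WT and 16.9, 13.5 and 16.5 in KO livers. On each diet every KO library lay below every WT library, by a narrow margin on chow. The log2 difference was -0.25 (standard error 0.12) on chow and -0.64 (standard error 0.12) on MCD, in the direction of *Psmc3ip* but smaller. The tested genes flanking the pair, *Coasy* and *Retreg3*, differed by 0.00045 and -0.14 on chow and by -0.26 and -0.14 on MCD, with adjusted p of 0.208 or more from limma.

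*C130046K22Rik* (ENSMUSG00000085154, 103697724 to 103722832, plus strand), a noncoding transcript, was listed at 0 in all 6 KO libraries. In WT livers its FPKM was 1.1, 1.13 and 1.33 on chow and 1.15, 1.18 and 0.723 on MCD. The WT values stood for 19, 11 and 15 fragments and 16, 17 and 10 fragments. Genes that every cell uses, *Actb*, *Gapdh*, *Rplp0* and *Eef1a1*, were at 236 FPKM or more in every library. A count of 0 was taken to allow up to 3 fragments over the 3 KO libraries of a diet, or 0.0865 FPKM on chow and 0.0831 on MCD. The WT mean was 13.7 times this limit on chow and 12.3 times on MCD. This limit covers counting error in the KO libraries only, and the error of the WT mean is not in these ratios. The first 175 bases of the gene overlap the start of *Gosr2*, a Golgi SNARE gene, on the opposite strand, 149 of them exonic in both. *Gosr2* FPKM on chow was 19.1, 18.1 and 20.4 in WT and 27.5, 27 and 27.8 in KO livers, a log2 difference of 0.49 (standard error 0.10, limma adjusted p = 0.109), and on MCD it was 0.05 (standard error 0.10, limma adjusted p = 0.845).

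*Acbd4* (ENSMUSG00000056938, 103101682 to 103112200, plus strand), 586 kb from *C130046K22Rik*, encodes an acyl-CoA binding protein of the peroxisomal membrane that tethers peroxisomes to the endoplasmic reticulum. It overlaps no other annotated gene. WT livers had 18.9, 22.6 and 22.5 FPKM on chow and 8.74, 9.05 and 9.89 on MCD, and KO livers 42.9, 40.8 and 38.3 on chow and 20.2, 17.7 and 18.7 on MCD. KO livers were above WT livers by about the same factor on both diets, 1.91 on chow and 2.05 on MCD, although the levels themselves were lower on MCD, so that KO livers on MCD lay close to WT livers on chow. The log2 differences were 0.90 (standard error 0.10) and 0.96 (standard error 0.10). Its neighbour *Hexim1*, an inhibitor of the elongation factor P-TEFb, differed by 0.31 (standard error 0.13, limma adjusted p = 0.666) on chow and 0.32 (standard error 0.13, limma adjusted p = 0.267) on MCD, and *Nmt1* on the other side by 0.0084 and -0.11.

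*Dhx40* (ENSMUSG00000018425, 86768846 to 86807746, minus strand) and *Brip1os* (ENSMUSG00000085208, 86201370 to 86304443, plus strand) are the members closest to *Pctp*, and both were lower in KO livers. *Dhx40* encodes a DEAH-box protein, a family of ATP-driven RNA helicases. On chow its FPKM was 8.71, 8.72 and 8.48 in WT and 3.64, 4.16 and 3.92 in KO livers, and on MCD 9.8, 9.5 and 9.72 in WT and 5.34, 5.51 and 5.61 in KO livers. The libraries of a group were within a few percent of each other in WT, and the groups were far apart. WT means were 2.21 times the KO mean on chow and 1.76 times on MCD, with log2 differences of -0.98 (standard error 0.082) and -0.72 (standard error 0.082). It overlaps no other annotated gene. *Brip1os* is a noncoding transcript named for the DNA helicase gene *Brip1*, which begins 176 bases from it on the opposite strand. The FPKM of *Brip1os* on chow was 6.01, 5.88 and 6.44 in WT and 4.66, 4.09 and 3.67 in KO livers, and on MCD 9.92, 9.1 and 9.2 in WT and 5.45, 6.16 and 6.28 in KO livers. KO libraries were below WT libraries on each diet, while the KO libraries on MCD reached the WT level on chow. The log2 differences were -0.47 (standard error 0.10) and -0.58 (standard error 0.10). It runs antisense through *Ints2*, an Integrator subunit gene, with 512 exonic bases shared, and *Med13*, a Mediator subunit gene, with 800. *Ints2* and *Med13* differed between KO and WT by 0.0026 and -0.10 on chow and by -0.16 and -0.18 on MCD, and *Brip1* differed by 0.049 and 0.16.

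For the 2 members farthest out on the side of lower coordinates, the genotypes were apart on MCD and overlapped on chow. *Pipox* (ENSMUSG00000017453, 77880615 to 77894096, minus strand) encodes the peroxisomal enzyme that oxidizes sarcosine and pipecolate. Chow livers had a *Pipox* FPKM of 131, 161 and 166 in WT and 159, 147 and 154 in KO mice. On MCD the values were 9.09, 15.6 and 15.1 in WT and 23.2, 23.3 and 31.7 in KO livers. On MCD the KO mean was 1.96 times the WT mean, with the levels of both far below chow. *Med11* (ENSMUSG00000018923, 70451919 to 70453727, plus strand) encodes a subunit of the head of Mediator, the complex that links transcription factors to RNA polymerase II. On chow *Med11* had an FPKM of 7.27, 7.95 and 6.0 in WT and 6.5, 7.78 and 6.44 in KO livers, and on MCD 15.7, 16.4 and 17.2 in WT and 10.7, 9.16 and 10.8 in KO livers. On MCD the WT mean was 1.61 times the KO mean. The log2 differences on chow and MCD were 0.014 (standard error 0.18) and 0.94 (standard error 0.18) for *Pipox*, and -0.027 (standard error 0.11) and -0.64 (standard error 0.11) for *Med11*. The 7 genes other than *AA465934*, *Psmc3ip* and *C130046K22Rik* rested on 84 fragments or more in each library, the fewest in *Med11*, and up to 6408, in *Pipox*.

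**Figure D2:**
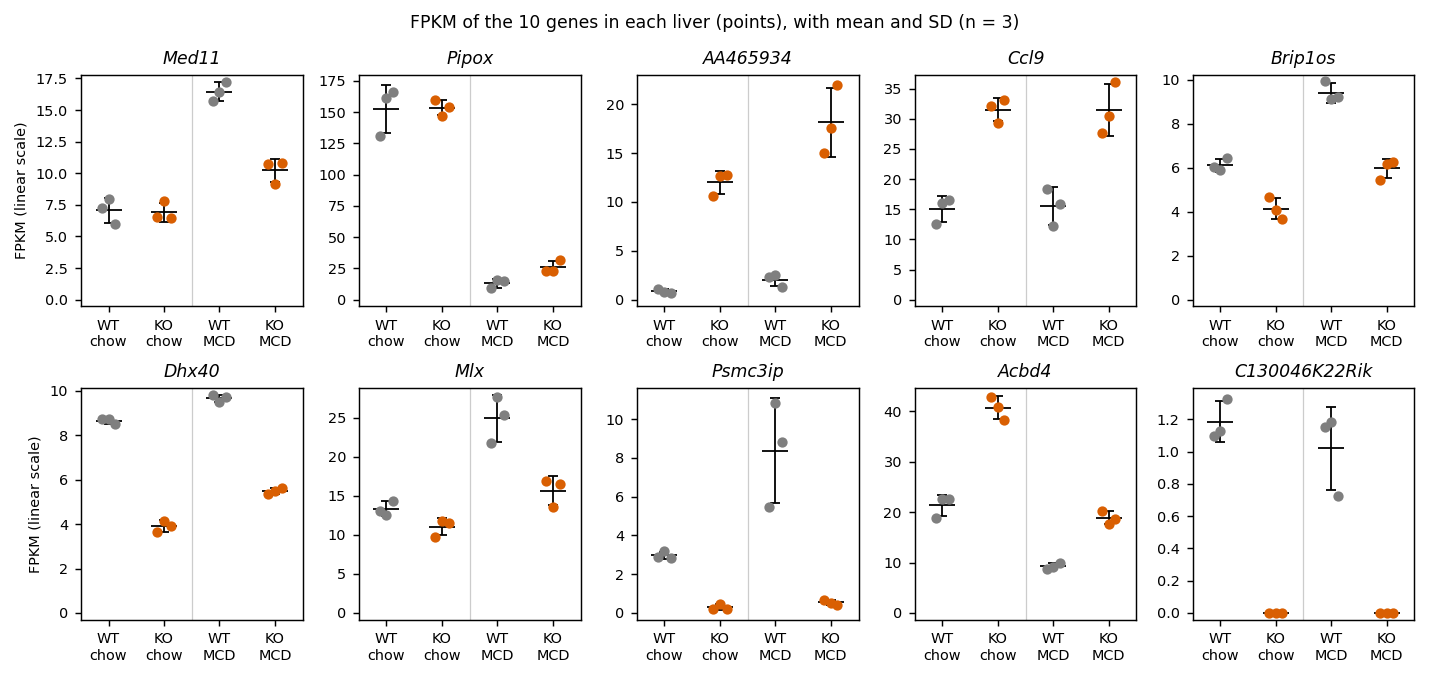
FPKM (vertical axes, linear scale from 0) of each of the 10 genes in each liver, by group (WT grey, KO orange). Points are single mice, and bars give the mean and SD of 3 mice. Psmc3ip lies between 0.192 and 0.659 in the KO livers, AA465934 between 0.684 and 2.47 in the WT livers, and C130046K22Rik is at 0 in all KO livers.

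The size of the KO difference itself varied with diet for some of the genes, by description only. Over all tested genes, the MCD difference minus the chow difference had a median of -0.096. The MCD difference minus the chow difference was -0.16 (standard error 0.24) for *AA465934*, -0.04 (standard error 0.21) for *Ccl9*, 0.056 (standard error 0.14) for *Acbd4* and -0.11 (standard error 0.14) for *Brip1os*. In these 4 the 2 diets lay within 1 standard error of each other, with 1 added to each FPKM. For *AA465934*, whose WT values were low, this depended on the number added. Its value was -0.57 (standard error 0.33) with 0.1 added and -0.33 (standard error 0.28) with 0.5 added. The MCD difference minus the chow difference was -0.94 (standard error 0.26) for *Psmc3ip*, whose WT level was higher on MCD, and 0.93 (standard error 0.26) for *Pipox*. For *Med11* it was -0.61 (standard error 0.16), for *Mlx* -0.39 (standard error 0.17) and for *Dhx40* 0.26 (standard error 0.12). Of the latter 5, *Dhx40* had its smaller KO difference on MCD and the others on chow. *C130046K22Rik* is left out, as its KO livers were at 0 and its fitted difference rests on the 1 added to each FPKM.

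**Figure D3:**
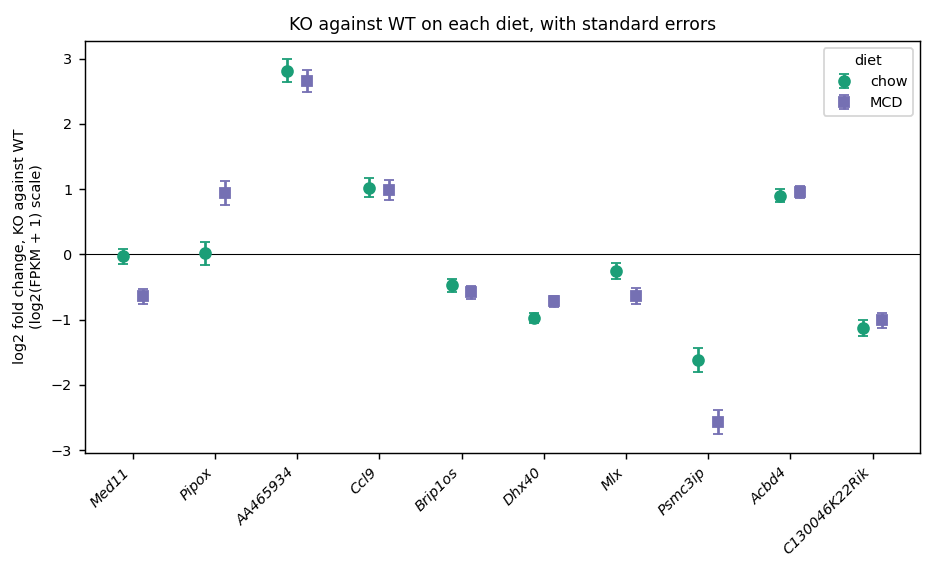
KO against WT difference of the 10 genes (vertical axis, log2 fold change on the log2(FPKM + 1) scale) on chow (green circles) and MCD (purple squares), ordered along chromosome 11, with standard errors from limma. On this scale, chow and MCD values lie close together for AA465934 (2.82 and 2.66), Ccl9 (1.03 and 0.99) and Acbd4 (0.90 and 0.96). They lie apart for Pipox (0.014 and 0.94) and Med11 (-0.027 and -0.64). With 0.1 added in place of 1, those of AA465934 were 3.69 and 3.12. Those of C130046K22Rik rest on the 1 added to each FPKM, as its KO livers were at 0.

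The other genes of the window were read for comparison. Of the 459 tested genes within 20 Mb of *Pctp*, 6 were called on chow and 11 on MCD, which are members and, on MCD, *Pctp*. Among the other 448, 0 were called on either diet by limma. The members and *Pctp* were left out of these 448, so the absence of calls was fixed by the choice and is no result. Of the 448, 36 on chow and 76 on MCD had an unadjusted p under 0.05 from limma. KO and WT ranges did not overlap for 11.2% of them on chow and 30.1% on MCD. Their median log2 difference was 0.016 on chow and -0.11 on MCD, beside 0.006 and -0.09 over all tested genes. Over 564 tested genes of chromosome 11 beyond 20 Mb, 1 was called on chow and 3 on MCD. Each of the 19 other chromosomes with at least 100 tested genes had 0 to 3 on chow and 0 to 11 on MCD. These were at most 0.32% of the tested genes of a chromosome on chow and 1.74% on MCD. The shares were 1.31% and 2.4% for the window, members included, and 0.136% and 0.818% for all tested genes. The shares of the window rest on the members, chosen by these same contrasts, and on *Pctp*, so nothing is read from their height. The called genes of chromosome 11 nearest beyond the 20 Mb limit lay well outside it. *Lgals3bp* at 28.4 Mb differed by -0.63 (standard error 0.12) on MCD and *Nhp2* at 38.4 Mb by -0.72 (standard error 0.12). Inside 20 Mb, the genes next in line were *Nr1d1*, which encodes the clock repressor REV-ERBα, at -1.22 (standard error 0.22) and *Gosr2* on chow, and *Ccl6*, *Wfdc17* at -0.82 (standard error 0.18) and *Ccl2* at -1.21 (standard error 0.27) on MCD, while *Brip1os* was called on MCD and not on chow. The KO and WT ranges of these genes did not overlap on the diet named.

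The 21 tested genes that overlap or flank the members were read next. None was called by limma for the KO on chow or MCD, and 3 and 7 had an unadjusted p under 0.05. All lie in the window, where every called gene is a member or *Pctp*. Members were left out of the 21, so the absence of calls was fixed by the choice and is no result. Their log2 differences ran from -0.25 to 0.49 on chow (median -0.075) and from -1.35 to 0.32 on MCD (median -0.16). With diet, 11 of the 21 were called higher and 5 lower. Of the members, 5 overlap another annotated gene, and 54.4% of the 12401 tested genes held by the annotation do so.

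The diet comparison, averaged over the genotypes, did not enter the choice of the genes. On MCD 6 of the 10 rose, 2 fell and 2 were not called, against 37.7% of all tested genes that rose and 28.8% that fell. *Pipox* had the largest change. Its mean was 153 ± 19.2 FPKM on chow and 13.3 ± 3.63 on MCD (SD, n = 3) in WT livers, 11.5 times lower. In KO livers it was 153 ± 6.19 and 26.1 ± 4.87 (SD, n = 3), 5.89 times lower, and every MCD library lay below every chow library. The averaged log2 fold change was -2.99 (standard error 0.13, limma adjusted p = 3.74e-09). *Acbd4* fell too, with a chow mean 2.31 times the MCD mean in WT and 2.15 times in KO livers and an averaged log2 fold change of -1.10 (standard error 0.069, limma adjusted p = 6.59e-08). Both of these genes encode peroxisomal proteins.

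Among the genes that rose, *Med11* changed by 0.81 (standard error 0.081, limma adjusted p = 2.99e-06), and all 6 MCD libraries were above all 6 chow libraries. *Psmc3ip* changed by 0.73 (standard error 0.13, limma adjusted p = 3.40e-04), with 2.82 times the chow mean in WT and 1.84 times in KO livers. *Mlx* changed by 0.66 (standard error 0.084, limma adjusted p = 2.42e-05), with ratios of 1.87 in WT and 1.41 in KO livers. The 2 genes of this overlapping pair rose together. *AA465934* changed by 0.63 (standard error 0.12, limma adjusted p = 5.95e-04) and *Brip1os* by 0.49 (standard error 0.07, limma adjusted p = 5.35e-05), with ratios of 1.54 in WT and 1.44 in KO livers. *Dhx40* changed least of those called, by 0.28 (standard error 0.058, limma adjusted p = 0.00111), and its ratio was 1.12 in WT and 1.4 in KO livers. *Ccl9*, with an averaged difference of 0.0089 (standard error 0.11, limma adjusted p = 0.947), did not pass. *C130046K22Rik* was not called either, but it was tested only because of its WT level, and with its KO livers at 0 on both diets the averaged test could show no diet change in KO. Its MCD mean was 0.86 times the chow mean in WT livers. For *Ccl9* the ratio of MCD to chow was 1.03 in WT and 0.997 in KO livers, while 10 of 16 tested CC chemokine and receptor genes rose on MCD.

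**Figure D4:**
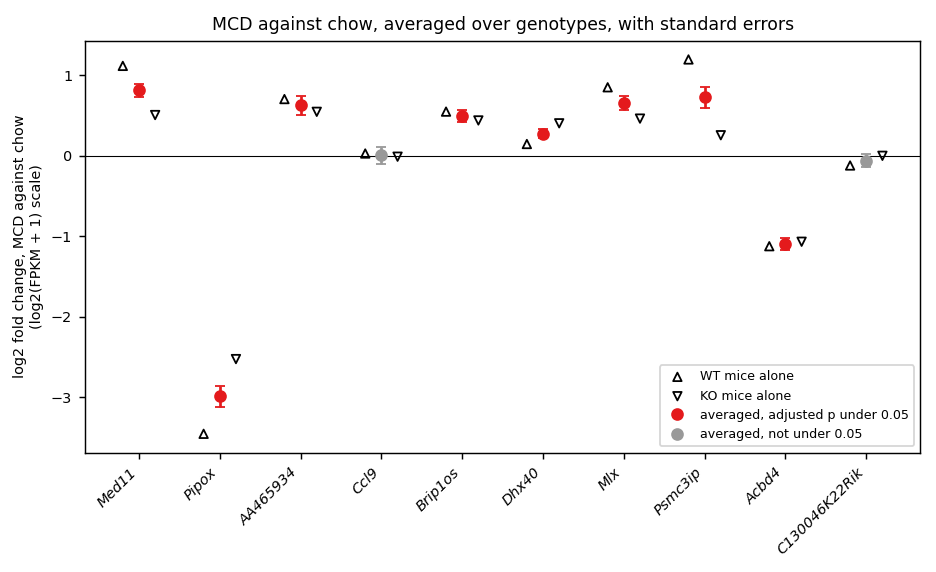
MCD against chow difference (vertical axis, log2 fold change on the log2(FPKM + 1) scale) of the 10 genes, averaged over genotypes (filled circles with standard errors, red where the adjusted p was under 0.05, grey where not), with the difference in WT mice (upward triangles) and KO mice (downward triangles) alone. Pipox lies lowest, at -2.99, Med11 highest, at 0.81, and Ccl9 and C130046K22Rik lie at 0.0089 and -0.06, the latter with its KO livers at 0 on both diets.

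Genes that share a pathway with the members were read from 8 lists that hold 189 genes, of which 153 were tested. On chow 0 and on MCD 0 of the 153 were called by the KO with limma, with 12 and 29 at an unadjusted p under 0.05, and diet called 104. Of all 12466 tested genes, the KO called 0.136% on chow and 0.818% on MCD. Unadjusted p was under 0.05 for 870 and 2026 of them, and diet called 8289. At such shares 0 calls in 153 genes tell little. Partners of HOP2 and BRIP1 in recombination, 13 tested, rose in 4 and fell in 2 cases on MCD (median log2 fold change 0.12, beside 0.07 over all tested genes). *Hsf2bp*, a meiotic partner of BRCA2, changed by 0.89, the DNA translocase gene *Rad54b* by 0.78 and *Xrcc3*, a gene of homologous recombination, by -0.62. Of 30 Mediator subunits 13 rose and 7 fell (median 0.059), among them *Med21*, at 0.82, and *Med25* and *Med12*, at -1.17 and -0.86.

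The network of MLX, MAX and their partners, 10 tested, fell in 6 cases and rose in 1 (median -0.32). *Mlxipl*, the gene of ChREBP, changed by -0.82 (standard error 0.23, limma adjusted p = 0.0076) and *Mycn*, a MYC family factor, by -0.96 (standard error 0.19, limma adjusted p = 6.51e-04), and *Max*, the partner shared by the MYC and MXD proteins, by 0.97 (standard error 0.12, limma adjusted p = 1.73e-05). In the averaged comparison *Mlx* rose where its partner *Mlxipl* fell. The *Mlxipl* ranges overlapped between diets, with KO livers at 67.5, 195 and 212 FPKM on chow and 95.1 to 109 on MCD. Of 22 target genes of MLX and ChREBP, 3 rose and 8 fell (median -0.10). The stearoyl-CoA desaturase gene *Scd1* changed by -8.84, the glucose-6-phosphatase gene *G6pc* by -3.11 (standard error 0.51) and the hormone gene *Fgf21* by 5.36. The *G6pc* ranges overlapped between diets, as KO replicate 2 on MCD was at 248 FPKM and WT replicate 1 on chow at 146.

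Acyl-CoA binding and peroxisome genes, 22 tested, were split between 8 that rose and 6 that fell (median 0.12), with *Pex6* and *Pex14* of the peroxisomal import machinery at -2.48 and -0.91 and *Acbd6*, a relative of *Acbd4*, at -1.03. Of 21 genes of sarcosine, glycine and pipecolate metabolism, 7 rose and 11 fell (median -0.40). The sarcosine dehydrogenase gene *Sardh*, whose mitochondrial product acts on a substrate that PIPOX also oxidizes, went from 195 ± 8.68 to 65.6 ± 9.41 FPKM (SD, n = 3) in WT livers, with an averaged change of -1.46 (standard error 0.094, limma adjusted p = 8.34e-08). *Aldh7a1*, an aldehyde dehydrogenase of lysine breakdown, changed by -1.65, and *Bhmt*, which makes methionine from betaine and homocysteine, by 1.42. In the chemokine list, which had 10 genes rise and 3 fall (median 0.53), *Ccl2* changed by 2.28, *Ccl6* by 2.03 and *Ccl25* by -1.28. Of 19 DEAH and DExH helicases 8 rose and 7 fell (median -0.054), with *Ascc3* at 0.74 and *Dhx16* and *Dhx30* at -0.95 and -0.72.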

How the data were processed

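Liver RNA of 12 mice was sequenced, 3 per genotype and diet. FPKM per gene and library were deposited by the authors, with read and mapping statistics in a further table. Per the labels the genome build was mm10, and the aligner, the counting tool, the annotation and the use of strand are not given in the sources used here. Positions came from GENCODE M21 of GRCm38, which held 34490 of 35275 identifiers, and promoters from RefSeq (GRCm38.p6). Multiplied by GENCODE exonic length and relative depth, the 12 FPKM values of each of the 10 genes were whole multiples (tolerance 0.05) of a unit, the largest that gave whole numbers, which was 1.01 to 1.51 depending on the gene. This unit was taken as 1 fragment. Fragments describe precision and entered no test.

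The 12466 genes that averaged 0.5 FPKM or more were fitted as log2(FPKM + 1) with limma 3.58.1 in R 4.3.3, using 1 mean per group and a mean-variance trend, and p-values were adjusted over all of them by the Benjamini-Hochberg method. This replaced a count test, since FPKM are not counts. No minimum fold change was used. Knockout contrasts were taken within each diet, and the diet contrast was averaged over genotypes. The p-values measure the spread between mice. In simulated data, 84% of 200 genes changed by 1 (log2) on chow were recovered among 12466, with 11 false calls. The simulated noise was normal, with the fitted spread of each gene. Unlike these data, it held no diet effect and no shift of whole libraries. These numbers therefore check the fit and do not give the error rate of the calls made here.

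The members, gene lists and tests were chosen with earlier results of these data known. Named are all 10 genes, *Pctp*, overlapping and flanking genes, up to 3 genes per related list with the largest called diet change, and genes next to the thresholds. A flanking gene is not reported here. Alternatives covered the pseudocount, filter, scaling, trend, robust fitting, libraries fitted, each library left out and a replicate block. Figures were drawn with matplotlib 3.10.9.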

Additional observations from a re-analysis of the deposited data

How the results depend on the processing

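The 10 genes kept the sign of the knockout difference in all alternatives run, except *Pipox* and *Med11* on chow, near 0, which kept it in 20 of 23. By diet, 8 of the genes were called in each alternative (8 to 8 with a library left out), except 7 with a mean FPKM of at least 5, where *Psmc3ip* was not tested. The diet difference of *Ccl9*, near 0 and not called, kept its sign in 15 of 22.

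Knockout calls on chow, 17 in all and 6 among the 10 genes, were 11 with a mean FPKM of at least 5, 10 without a filter, and 4 in all and 3 among the 10, also 3 in the window, with only the 6 libraries compared. On MCD, 102 calls (37 higher, 65 lower) became 110 (69 higher, 41 lower) after quantile normalization, 55 (25 higher, 30 lower) after median-of-ratios scaling and 19 with only the 6 libraries. Calls in the window, 11, became 7 and 6, and those among the 10 genes 6 and 5, in the last 2 of these. With a mean FPKM of at least 5, diet called 4964 genes in place of 8289 and 66 of the related genes in place of 104, where fewer genes were tested. The related lists had 1 knockout call on MCD in place of 0 with a mean FPKM of at least 1 or 5, no filter or quantile normalization. Genes whose knockout difference differed between diets numbered 12, and 6 after median-of-ratios scaling, 3 and 4 with pseudocounts of 0.1 and 0.5, and 7 without the trend. The cause was not tested.

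With each library left out in turn, calls numbered 8 to 34 on chow, 27 to 173 on MCD, 7804 to 8438 by diet and 0 to 60 for the difference between diets. The window had 5 to 7 and 6 to 15, and the 10 genes 5 to 6 on chow and 5 to 10 on MCD, where 5 were left without KO replicate 2 or 3 on MCD and 6 without WT replicate 2. The related lists had 0 to 0 on chow, 0 to 2 on MCD and 97 to 104 by diet.

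The labels state no pairing of mice by replicate number, and the main fit used none. Deviations of same-numbered WT and KO libraries correlated at 0.065, 0.192 and 0.063 on chow and 0.136, -0.097 and 0.115 on MCD. Between the diets they correlated at 0.199, 0.184 and 0.041 in WT and at -0.021, 0.0053 and 0.018 in KO livers. With the replicate number as a block, 32 genes were called on chow, 59 differed between diets, and the related lists had 1 call on each diet. *C130046K22Rik* was not tested with a mean FPKM of at least 1 or 5, nor was *Psmc3ip* with at least 5.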
